A study of Mus musculus with 4 samples.

Results

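The gelsolin superfamily includes the actin-binding proteins advillin (Avil), villin (Vil1), gelsolin (Gsn), the capping protein CapG (Capg), adseverin (Scin), flightless (Flii) and supervillin (Svil). These 7 mouse genes, called the family here, have 16 probe sets of their own among 45037 non-control probe sets of the array. They were found by the gene symbol of the platform annotation. No probe set lists a member together with another gene. The family was chosen by a measured value, the excess of Avil in L929 over NIH3T3 cells, so the values of all 7 genes in that contrast are given as a description and without p-values. Gsn has 6 probe sets, Flii 3, Capg and Svil 2 each, and Avil, Vil1 and Scin 1 each.

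The study measured total RNA of 2 established mouse fibroblast lines on 2 arrays each: L929, derived from connective tissue, and NIH3T3, derived from embryos. Both lines were unstimulated and neither carried a stated genetic change or treatment. The submitters present L929 as a necrosis-sensitive and NIH3T3 as an apoptosis-sensitive line, and since 1 line stands for each property, property and line cannot be told apart. The labels do not say that replicates came from separate cultures, so every p-value here reflects array-to-array spread that may be purely technical.

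Members of the family share a folded unit, the gelsolin repeat, which binds actin and in most members responds to calcium and to phosphoinositides. Gelsolin, adseverin, villin and advillin cut actin filaments and cap the fast-growing end, whereas CapG caps without cutting. Villin, advillin and supervillin carry in addition a headpiece at the C-terminus, a second actin-binding module, and flightless carries leucine-rich repeats. Gelsolin is abundant in fibroblasts, villin in the intestinal brush border, and advillin in sensory neurons and in tuft cells of mucosal epithelia.

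The starts of these genes are shown first because the members differ in whether their signal was bright in 1 line, in both or in neither. RefSeq promoter windows, with 250 bases before and 50 after a start in build GRCm38.p6, were found for 6 of the 7 genes, and Svil was not matched. Below are the windows of Avil, high in L929 alone, of Vil1, dim in both lines, and of Flii, alike in both. Avil lies at chr10:127000459-127000758 on the plus strand, Vil1 at chr1:74409134-74409433 on the plus strand and Flii at chr11:60727214-60727513 on the minus strand. Capitals mark matches, on either strand, to a CArG box, the sequence bound by serum response factor, to the GC box GGGCGG, to CCAAT and to TATAAA.
Avil: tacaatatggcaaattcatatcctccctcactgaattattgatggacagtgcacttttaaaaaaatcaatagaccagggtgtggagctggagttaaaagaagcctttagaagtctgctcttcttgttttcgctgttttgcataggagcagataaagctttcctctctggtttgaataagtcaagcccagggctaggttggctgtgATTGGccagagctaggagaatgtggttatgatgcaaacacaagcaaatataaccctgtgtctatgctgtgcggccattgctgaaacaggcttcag
Vil1: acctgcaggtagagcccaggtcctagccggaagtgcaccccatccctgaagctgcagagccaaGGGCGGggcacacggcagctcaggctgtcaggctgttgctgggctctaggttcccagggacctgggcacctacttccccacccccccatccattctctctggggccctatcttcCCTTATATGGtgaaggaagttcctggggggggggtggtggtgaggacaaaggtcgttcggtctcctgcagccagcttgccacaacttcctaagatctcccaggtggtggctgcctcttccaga
Flii: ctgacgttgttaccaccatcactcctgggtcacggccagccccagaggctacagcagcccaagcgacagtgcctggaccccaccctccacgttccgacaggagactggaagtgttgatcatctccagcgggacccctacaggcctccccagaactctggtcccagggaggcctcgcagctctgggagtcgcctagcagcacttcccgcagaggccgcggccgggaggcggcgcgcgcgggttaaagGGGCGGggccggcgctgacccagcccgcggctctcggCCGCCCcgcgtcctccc

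The Avil window held 2 CpG dinucleotides and 43.0% G and C, against 5 CpG and 61.7% for Vil1 and 26 CpG and 70.0% for Flii. The median of 32851 promoter windows was 7 CpG and 52.7% G and C, and 14.1% of them had fewer CpG than the Avil window. Avil held a single CCAAT match, on the opposite strand and beginning 45 bases before the start, a motif found in 37.4% of all windows. Vil1 held a CArG box beginning 73 bases before its start, found in 1.63% of windows, and 1 GC box. GC boxes occurred in 35.7% of all windows, and Flii had 2, of which 1 lies beyond the start. TATAAA, found in 13.6% of windows, was in none of the member windows, and no matches of different motifs overlapped in the 3 windows shown. The other windows had 7 CpG for Capg, 16 for Scin, and 20, 2 and 16 for the 3 annotated Gsn starts. Scin, which was dim in both lines, had more CpG than the median window, as Flii did. These letters describe the windows only and say nothing of whether a factor binds there.

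Values are probe-set signals from the MAS5 algorithm, which have no absolute unit, after all 4 arrays were brought to the same 2% trimmed mean. A signal of 17.3, below which 40% of the scaled values lie, served as the filter level. It is not a detection limit. A probe set entered the fit if both arrays of a line lay above it, and 12 of the 16 did, from 5 of the 7 genes. Differences are log2(signal + 8.01) in L929 minus NIH3T3, with standard errors from limma, and folds are taken from these differences. The added 8.01 understates the change of dim probe sets. After scaling, replicate arrays correlated with r = 0.982 in L929 and 0.981 in NIH3T3 over tested probe sets, against 0.835 to 0.843 between lines. NIH3T3 replicate 2 was deposited with a trimmed mean of 210, above the 135 to 142 of the other arrays. Fibroblast markers were above the filter level on both arrays for 11 of 13 genes in L929 and 13 of 13 in NIH3T3. Even so, 5 of the 13 were lower in L929 and 1 was higher, against 17.6% lower and 17.3% higher of 12676 tested genes. Thy1, a surface marker of fibroblasts, was 70.9-fold lower, at 18.0 and 30.0 in L929, against 2193 and 2253 in NIH3T3. The matrix proteoglycans Lum and Dcn were also lower and passed the level on 1 of 2 L929 arrays. Fn1 and the receptor Pdgfra were 2.39-fold and 5.41-fold lower, and Pdgfrb was 1.99-fold higher.

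Avil was bright in L929 and dim in NIH3T3. It read 2137 and 2236 on the L929 arrays, against 1.83 and 4.02 on the NIH3T3 arrays. Both L929 arrays lay far above both NIH3T3 arrays, which in turn lay below the filter level, so only a lower bound of the fold can be given. With NIH3T3 set at the filter level, Avil was at least 127-fold higher in L929. The fitted log2 difference, 7.66 ± 0.16 (SE, n = 2 arrays per line), is the value that chose the family and depends on the added 8.01, since it was 9.18 with an offset of 1. A single probe set reports Avil, so no second one bears on the value.

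Vil1, the closest relative of Avil in domain structure and the classical bundler of microvillus cores, was dim in both lines. Its probe set read 5.37 and 3.0 in L929, against 0.48 and 6.94 in NIH3T3. All 4 values lay below the filter level, and no fold is given. Scin, the calcium-dependent severing protein of secretory cells, was also dim, at 7.74 and 11.6 in L929, against 17.4 and 6.63 in NIH3T3. The higher NIH3T3 array of Scin lay just above the level, and the arrays of the lines overlapped. Of the 3 members known mainly from specialised cells, Avil alone was bright in a line, and that line was L929.

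**Figure D1:**
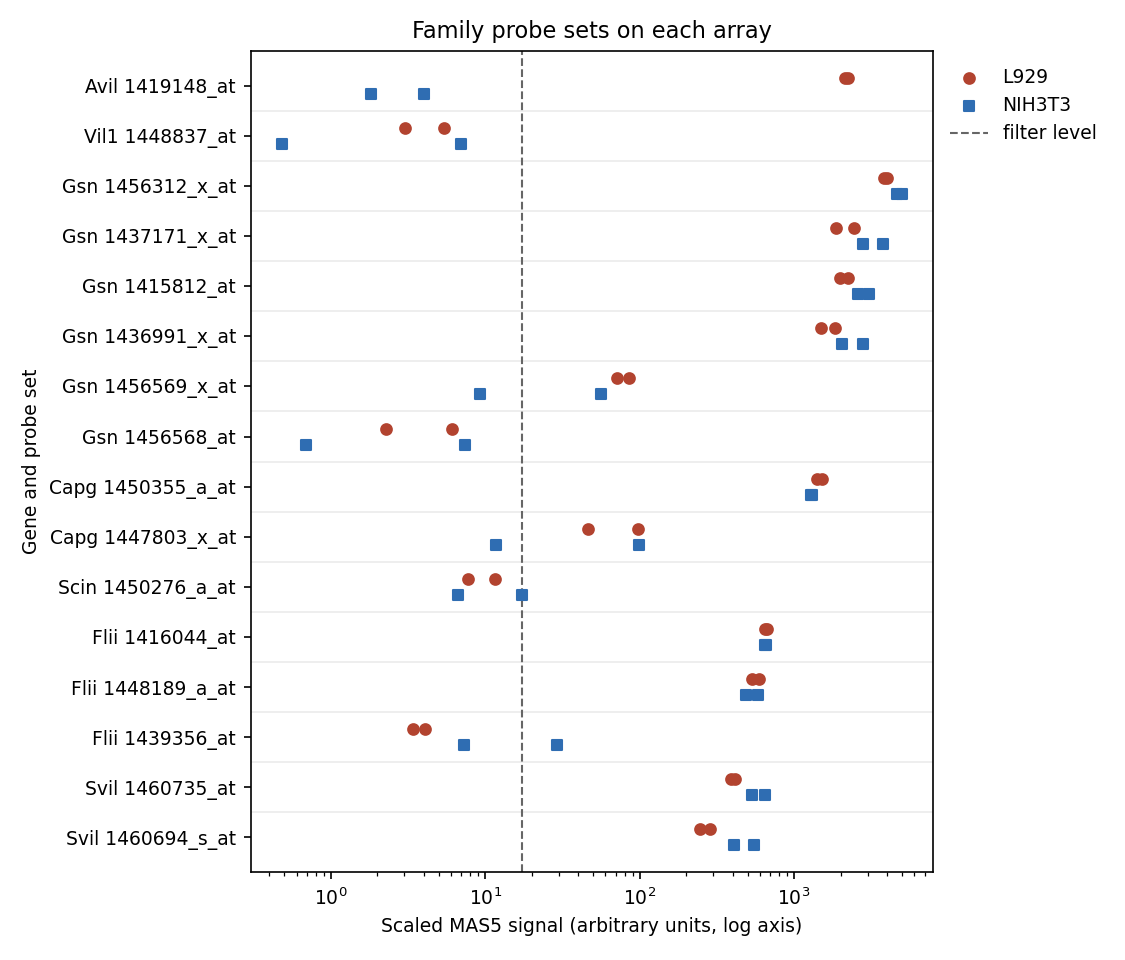
Scaled MAS5 signal (log axis) of the 16 family probe sets, 1 row each, with 2 L929 arrays (circles, above) and 2 NIH3T3 arrays (squares, below) and the filter level of 17.3 as a dashed line. Avil lies at 2137 and 2236 in L929 and at 1.83 and 4.02 in NIH3T3. The bright probe sets of Gsn and those of Svil lie modestly lower in L929 without overlap, and the bright ones of Capg and Flii lie nearly alike in the lines.

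Gsn, the severing and capping protein that remodels the fibroblast cytoskeleton, was bright in both lines and lower in L929 on its 4 bright probe sets. The probe set 1415812_at, the only one of the 4 without the suffix that marks probes shared with similar sequences, read 1975 and 2219 in L929, against 3078 and 2603 in NIH3T3. Probe set 1456312_x_at read 4005 and 3807 in L929, against 5012 and 4664 in NIH3T3. On each of the 4, both L929 arrays lay below both NIH3T3 arrays.

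The sizes of these Gsn differences were modest. On 1437171_x_at the signal averaged 2159 ± 401 in L929 and 3291 ± 710 in NIH3T3 (SD, n = 2 each), and on 1436991_x_at it averaged 1673 ± 244 in L929 and 2414 ± 515 in NIH3T3. Log2 differences were -0.31 ± 0.16 for 1456312_x_at, -0.43 ± 0.14 for 1415812_at, -0.52 ± 0.18 for 1436991_x_at and -0.60 ± 0.19 for 1437171_x_at (SE). As folds they run between 1.24-fold and 1.52-fold lower in L929. These probe sets measure 1 gene and are not independent of each other.

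Both dim Gsn probe sets differed from the bright ones. Probe set 1456569_x_at read 70.9 and 85.1 in L929, against 9.30 and 56.5 in NIH3T3, a log2 difference of 1.36 ± 0.53 and only NIH3T3 replicate 2 passed the level within its line. The other dim Gsn probe set, 1456568_at, stayed below the level on all 4 arrays, between 0.69 and 7.35. The value of 1456569_x_at ran from 0.41 without NIH3T3 replicate 1 to 2.31 without NIH3T3 replicate 2, and 1456568_at gives no direction. What these dim probe sets measure was not tested.

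Svil, the membrane-linked member that binds actin and myosin II at sites of contraction and adhesion, was also lower in L929. Probe set 1460694_s_at read 245 and 284 in L929, against 408 and 551 in NIH3T3. Probe set 1460735_at read 392 and 413 in L929, against 532 and 652 in NIH3T3. The arrays of the lines did not overlap on either. Log2 differences were -0.83 ± 0.16 and -0.54 ± 0.12, that is 1.77-fold and 1.45-fold lower in L929. Both probe sets measure 1 gene and are not independent of each other.

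Capg and Flii gave nearly the same signal in both lines. Capg, which caps filaments in motile cells and macrophages, read 1524 and 1404 in L929, against 1282 and 1310 in NIH3T3 on 1450355_a_at, a log2 difference of 0.17 ± 0.11 with no overlap between the lines. Its second probe set, 1447803_x_at, read 46.6 and 97.2 in L929, against 98.4 and 11.7 in NIH3T3, and the arrays of NIH3T3 alone spanned an 8.41-fold range. The spread within NIH3T3 was larger than the difference between the lines on that probe set.

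Flii, the leucine-rich-repeat member that also acts as a nuclear receptor coactivator, read 650 and 666 in L929, against 654 and 645 in NIH3T3 on 1416044_at. On 1448189_a_at it read 534 and 592 in L929, against 582 and 489 in NIH3T3. The lines overlapped on both, with log2 differences of 0.02 ± 0.10 and 0.07 ± 0.12. The remaining probe set, 1439356_at, read 3.41 and 4.06 in L929, against 29.2 and 7.25 in NIH3T3, too dim to be fitted.

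**Figure D2:**
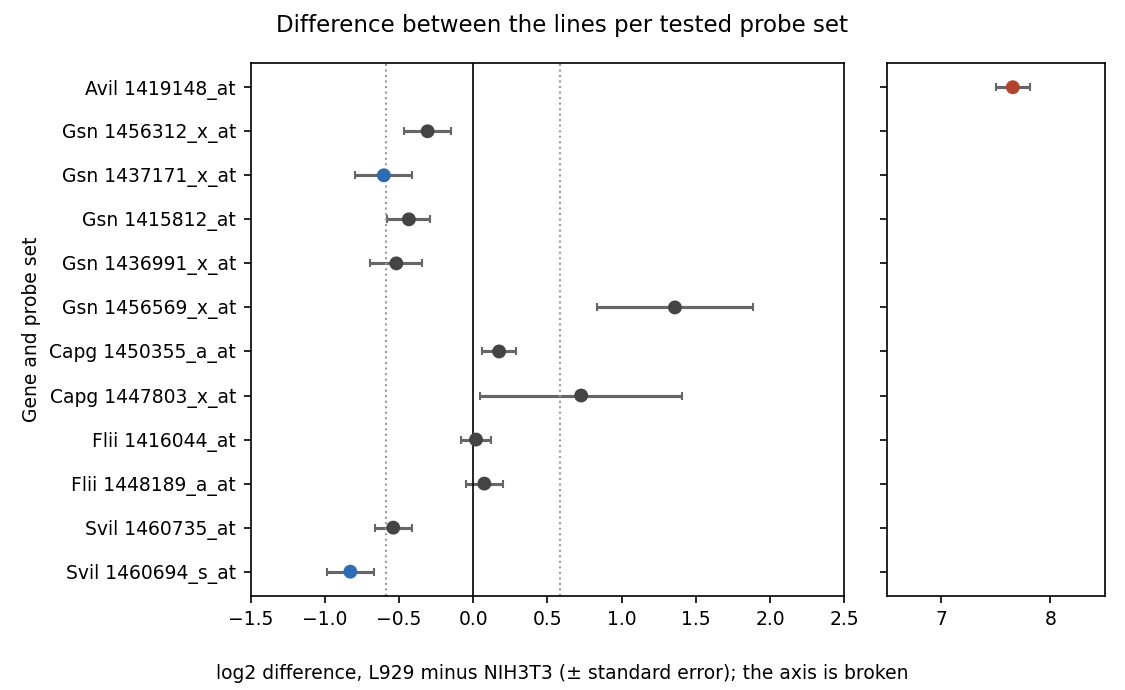
Log2 difference, L929 minus NIH3T3, of the 12 tested family probe sets with standard errors, on a broken axis; dotted lines mark the 1.5-fold threshold, and coloured points pass both thresholds. Avil stands at 7.66, the 4 bright Gsn and the 2 Svil probe sets between -0.83 and -0.31, and the 2 Flii probe sets at 0.02 and 0.07.

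At the submitters' thresholds, an adjusted p under 0.05 and a fold above 1.5 in limma's fit over all probe sets, 1 of 12 tested family probe sets was higher in L929 (Avil) and 2 were lower (Gsn 1437171_x_at and Svil 1460694_s_at). Over all 27438 tested probe sets, 14.9% were higher and 16.7% lower. The arrays of the lines did not overlap for 3 family probe sets that were higher and 6 that were lower, against 34.1% and 35.8% of all tested probe sets. Because this contrast chose the family, the counts describe it and support nothing. The median log2 difference was -0.14 over the 12 and -0.0091 over all tested probe sets, and the median size was 0.53 against 0.44.

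The Gsn call on 1437171_x_at depended on several arrays, being lost without L929 replicate 1, without L929 replicate 2 and without NIH3T3 replicate 1. Its log2 difference was -0.79, -0.41 and -0.38 in these fits, and the call was also lost with no filter and with no mean-variance trend. Without NIH3T3 replicate 2, Gsn 1436991_x_at and the dim Flii 1439356_at were also called lower, and Gsn 1456569_x_at was called higher, at -0.74, -1.66 and 2.31. Without NIH3T3 replicate 1, Svil 1460735_at was also called lower at -0.68 and Capg 1447803_x_at higher at 1.94, whereas the Capg value was -0.49 without NIH3T3 replicate 2. The Svil call on 1460694_s_at was lost without scaling (-1.11), where all 4 bright Gsn probe sets were called lower. The direction of the 4 bright Gsn and the 2 Svil probe sets stayed negative in all 11 alternatives, over ranges of -0.89 to -0.26 for Gsn and -1.11 to -0.39 for Svil.

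Markers of cells known to express advillin were set beside its signal. For comparison with the calls below, 17.3% of all 12676 tested genes were higher in L929 and 17.6% lower. Of 13 sensory neuron marker genes with a probe set, 3 were above the filter level on both arrays in L929 and 3 in NIH3T3, and their summed signal was 206 and 278 in L929, against 206 and 230 in NIH3T3. Of these, 5 were tested, 0 were higher and 1 was lower, with a median log2 difference of -0.0019. The lower one was Tubb3, a neuronal tubulin, at 2.02 and 2.88 in L929, against 47.9 and 22.0 in NIH3T3. The purinergic receptor P2rx3 read 42.5 and 40.8 in L929, against 15.1 and 27.8 in NIH3T3, and was not called. The neurotrophin receptor Ntrk3 read 31.8 and 35.0 in L929, against 25.1 and 16.5 in NIH3T3, also with no call. Its 3 probe sets ran from -0.36 to 0.54 on the log2 scale. Isl1 and Prph were tested and not called, at -0.66 and -0.0019, and the other 8 genes, Pou4f1, Scn10a and Trpv1 among them, did not pass the filter. For 11 tuft cell markers the sum was 1173 and 1158 in L929, against 411 and 481 in NIH3T3. Most of that sum came from Dclk1, a microtubule-linked kinase found beyond tuft cells too, at 960 and 906 in L929, against 173 and 274 in NIH3T3. Its 8 probe sets differed by 0.44 to 2.78 on the log2 scale, all in the same direction. Of the 11, 7 were above the level on both arrays in L929 and 6 in NIH3T3, and of 9 tested, 1 was higher and 1 lower, with a median log2 difference of 0.60. Gfi1b, Chat and Il17rb passed the level on both L929 arrays and on neither NIH3T3 array, at 20.4 to 40.2 in L929 and 7.31 to 16.3 in NIH3T3, and none of the 3 was called. Plcg2 stood at 0.60, Trpm5 at 0.13 and Alox5ap at -0.43, all without a call. Alox5 was lower, at 9.39 and 9.04 in L929, against 33.7 and 18.5 in NIH3T3 (limma adjusted p = 0.049 over genes), and Sh2d6, at -0.83, was not called. Both L929 arrays of Alox5 lay below the filter level. With L929 set at that level, Alox5 was at least 1.45-fold lower, a bound under the 1.5-fold threshold. The tuft cell regulator Pou2f3 read 30.7 and 9.61 in L929, against 21.2 and 16.9 in NIH3T3, and, like Il25, did not pass the filter. The part of these markers in the Avil difference was not tested. Brush border markers, the setting of Vil1, summed to 147 and 159 in L929, against 117 and 141 in NIH3T3. Of their 12 genes, 1 was above the level on both L929 arrays and 0 on both NIH3T3 arrays. That gene, Cdhr5, was the only tested gene of the list. It was 2.06-fold higher, at 51.8 and 48.3 in L929, against 15.0 and 26.5 in NIH3T3 (limma adjusted p = 0.021). Epithelial markers summed to 158 and 186 in L929, against 187 and 216 in NIH3T3. Macrophage markers, set beside Capg, summed to 309 and 310 in L929, against 474 and 486 in NIH3T3, and 7 of 12 genes were above the level on both L929 arrays and 5 on both NIH3T3 arrays. Csf1r, the receptor of the macrophage growth factor, read 93.3 and 72.9 in L929, against 80.6 and 93.1 in NIH3T3 on its brightest probe set. The 3 Csf1r probe sets ran from -0.80 to -0.06 on the log2 scale. Lyz2, or lysozyme, was 2.53-fold higher in L929 (limma adjusted p = 0.014), while Cd14 and Cd68 were 4.23-fold and 1.85-fold lower (adjusted p = 5.7e-05 and 0.015). Adgre1, Fcgr1 and Spi1 were tested and not called, and Ptprc, Itgam, Aif1, C1qa and Mpeg1 stayed below 12 on every array. The RNA came from 2 fibroblast lines, so these marker signals are not counts of cells of another type. Bulk RNA does not show how a signal was spread over the cells of a line.

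The 5 genes closest to Avil over the 4 arrays, by mean absolute distance of log2(signal + 8.01), were Sncg, S100a1, Crabp2, Ripk3 and Cadm4. The distance was 0.37 for Sncg, or gamma-synuclein, a protein of peripheral neurons, which read 1590 and 1550 in L929, against 1.67 and 9.25 in NIH3T3. It was 0.41 for S100a1, a calcium sensor, 0.46 for Crabp2, a retinoic acid carrier, 0.65 for Ripk3, a kinase of necroptosis, and 0.72 for Cadm4, an adhesion protein. With 2 lines and 4 arrays, any gene bright in L929 and dim in NIH3T3 comes out near Avil, so the list names genes of similar level and no more.

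Genes next to Avil on chromosome 10 differed in places but on a much smaller scale. Of the 3 tested genes on either side, the 3 that follow it in the GRCm38.p6 gene order were higher in L929 and the 3 that precede it were not called. Tsfm, a mitochondrial translation factor, read 466 and 463 in L929, against 336 and 276 in NIH3T3, 1.51-fold higher (limma adjusted p = 0.0038). Mettl1, a tRNA methyltransferase, was 1.88-fold higher (adjusted p = 0.0019), but its 3 probe sets ran from -0.30 to 0.91 on the log2 scale. Cyp27b1, which makes active vitamin D, read 44.7 and 39.4 in L929, against 2.21 and 0.56 in NIH3T3, at least 2.43-fold higher (adjusted p = 0.00038). The calls of Tsfm and Mettl1 were lost without scaling, that of Tsfm without NIH3T3 replicate 2 (log2 difference 0.46, against 0.60 with it), and that of Mettl1 with the gene's median probe set (0.32).

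In a wider window of 10 tested genes on each side, chosen after these values were seen, 3 were higher and 3 lower after Avil, and 2 were higher and 3 lower before it. The next gene, Marchf9, a ubiquitin ligase, stood at -2.23 ± 0.32, so the run of higher neighbours ended there. Over the 3 neighbours on either side of all 7 members, 9 of 36 tested genes were higher and 5 lower, against 17.3% higher and 17.6% lower of 12676 tested genes. By member, the higher counts were 3 for Avil, 2 for Vil1, 3 for Gsn and 1 for Scin, and the lower counts were 2 for Capg, 1 for Flii and 2 for Svil.

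**Figure D3:**
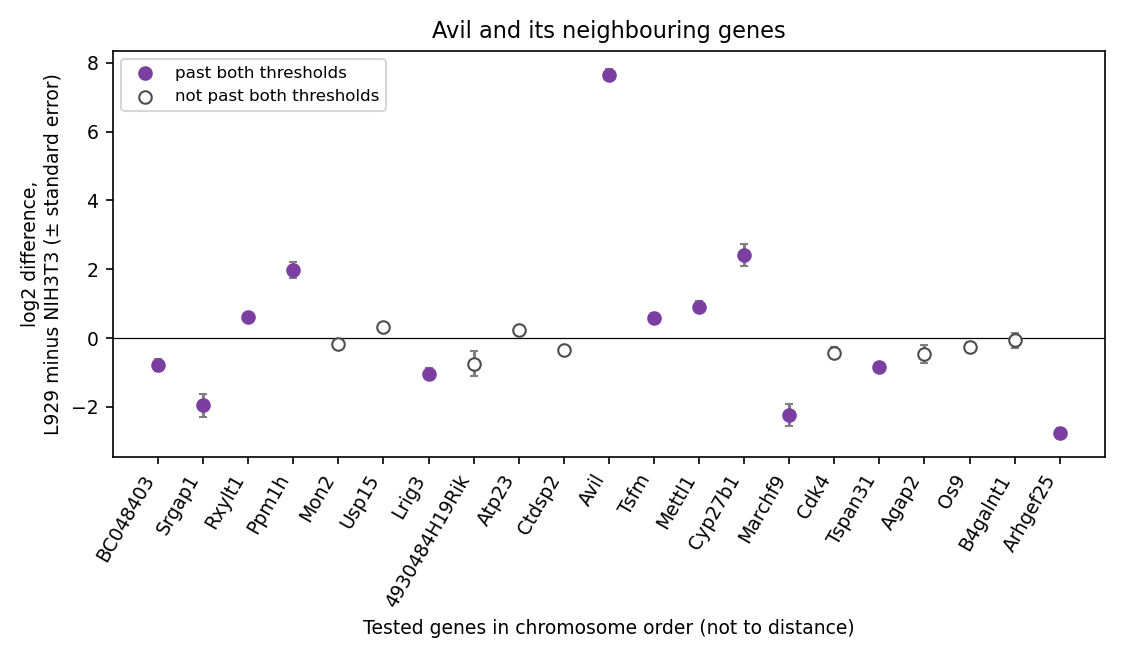
Log2 difference, L929 minus NIH3T3, with standard errors of Avil and the 10 tested genes on each side in chromosome order; filled points pass both thresholds. Avil stands at 7.66, Cyp27b1 at 2.42 and Arhgef25, the lowest, at -2.76.

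The rest of the actin machinery, taken from 8 lists of regulators outside the family, moved in both directions. Where a gene had several tested probe sets, the brightest represented it. Of 98 tested genes, 19 were higher and 28 lower in L929, against 17.3% higher and 17.6% lower of all tested genes, with a median log2 difference of -0.12 against 0.014 over all tested genes. Among 21 genes that cut or turn over filaments, the task nearest to that of Avil and Gsn, 6 were higher and 4 lower. Coro1a, a coronin typical of blood cells, read 197 and 191 in L929, against 19.4 and 6.89 in NIH3T3, a 9.98-fold difference (limma adjusted p = 6.3e-05) although 1 of the 2 NIH3T3 arrays passed the level. Ssh3, a cofilin phosphatase, was at least 4.46-fold higher (adjusted p = 6.6e-05), and Pdxp, another cofilin phosphatase, was 6.04-fold higher (adjusted p = 2.7e-04). Cfl2, the muscle-type cofilin, was lower, at 794 and 825 in L929, against 1941 and 1887 in NIH3T3, 2.35-fold (adjusted p = 2.2e-05). Ssh1 and Cap1 were also lower, by 0.85 and 0.80 on the log2 scale, although the Ssh1 probe sets ran from -0.85 to 0.12. The Cap1 call was lost without NIH3T3 replicate 1 (-0.58), and that of Ssh1 with the gene's median probe set (-0.43).

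Among 12 genes that cap filament ends, as Gsn and Capg do, 3 were higher and 2 lower. Capzb, the beta subunit of the general capping protein, read 1540 and 1537 in L929, against 568 and 519 in NIH3T3, 2.81-fold higher (limma adjusted p = 7.9e-06). Tmod3, which caps the slow-growing end, was 2.08-fold higher and Eps8l2 2.25-fold higher, although the 4 Tmod3 probe sets ran from -0.48 to 1.06 on the log2 scale. Eps8, a capping and bundling protein, was 2.42-fold lower, at 953 and 961 in L929, against 2311 and 2347 in NIH3T3 (adjusted p = 2.1e-05), and Add1, an adducin, was 1.54-fold lower, a call lost without NIH3T3 replicate 2 (log2 difference -0.58).

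Among 13 bundling and crosslinking genes, 2 were higher and 6 lower. Fscn1, or fascin, the bundler of filopodia, was 2.69-fold higher, at 9205 and 8458 in L929, against 3480 and 3087 in NIH3T3 (limma adjusted p = 1.9e-04), and Lasp1 was 1.69-fold higher, with probe sets from -0.84 to 1.28. Dbn1, or drebrin, was 11.5-fold lower, at 26 and 27.3 in L929, against 425 and 355 in NIH3T3 (adjusted p = 2.1e-06). Palld and Dbnl were 2.36-fold and 2.08-fold lower, although the 3 Palld probe sets ran from -1.39 to 0.06 on the log2 scale.

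Nucleation and elongation genes were higher for 3 of 27 and lower for 8. The formin Fmn1 read 8.30 and 8.13 in L929, against 225 and 306 in NIH3T3, at least 15.2-fold lower (limma adjusted p = 5.3e-06). Wasf1, a subunit of the complex that activates Arp2/3, was 11.8-fold lower (adjusted p = 4.6e-06), and the formin Diaph2 was 8.19-fold lower with 1 of 2 L929 arrays above the level. The formin Fhod1, the nucleator Spire2 and the Arp2/3 subunit Arpc5l were higher by 1.22, 1.05 and 0.66 on the log2 scale. The Arpc5l probe sets ran from -0.33 to 0.66, and its call was lost with the gene's median probe set (0.26).

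Actin isoforms and monomer-binding genes included 3 of the 4 largest differences in these lists. Of 10 tested, 1 was higher and 4 lower. The profilin Pfn2 read 86.7 and 112 in L929, against 4025 and 3699 in NIH3T3, 36.3-fold lower (limma adjusted p = 5e-08). Tmsb4x, the monomer-sequestering thymosin beta 4, read 17.5 and 17.7 in L929, just above the filter level, against 5515 and 4121 in NIH3T3, and Acta2 was 60.6-fold lower, while Acta1 was 2.76-fold higher. Tropomyosins, which coat filaments and limit severing by gelsolin, were lower for Tpm1 and Tpm2, by 0.99 and 1.05 on the log2 scale, and not called for the other 2.

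Partners of the family and the phosphoinositide kinases that feed its regulation were higher for 3 of 8 genes and lower for 2. Myh10, the heavy chain of nonmuscle myosin IIB, read 14.1 and 3.28 in L929, against 1923 and 1812 in NIH3T3, at least 108-fold lower (limma adjusted p = 6.1e-07). Mylk, myosin light chain kinase, was 6.66-fold higher, at 345 and 347 in L929, against 35.6 and 56.8 in NIH3T3 (adjusted p = 2e-05). Lrrfip2, a binding partner of Flii, was 1.81-fold higher (adjusted p = 2.8e-04), Pip5k1c 2.02-fold higher and Pip5k1a 1.53-fold lower. The Lrrfip2 call was lost with the gene's median probe set (median difference 0.85, limma adjusted p = 0.093 from the probe set nearest to it). That of Pip5k1a was lost with quantile normalization (-0.58). The 4 Pip5k1a probe sets ran from -0.83 to -0.405 on the log2 scale, and their median of -0.55 was under the 1.5-fold threshold.

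Outside the 7 genes of the family, 4 headpiece proteins had a probe set, 3 were tested and 1 was called. Ablim1, an actin-binding LIM protein, read 50.7 and 43.1 in L929, against 15.6 and 17.3 in NIH3T3 (log2 difference 1.17, limma adjusted p = 0.0084), a call lost without L929 replicate 1, where it was 1.06. Vill, or villin-like, a villin relative not counted among the 7 genes, and Dmtn, or dematin, differed by 0.30 and 0.28. Both are named here after their values were seen. Without scaling, where the median of all probe sets moved to -0.28, the count of regulators that were higher dropped to 7 and that of lower ones to 23. The higher calls of Eps8l2, Tmod3, Lasp1, Fhod1, Spire2, Arpc5l, Ablim1, Pip5k1c and Lrrfip2 and the lower calls of Ssh1, Add1 and Pip5k1a were lost there.

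**Figure D4:**
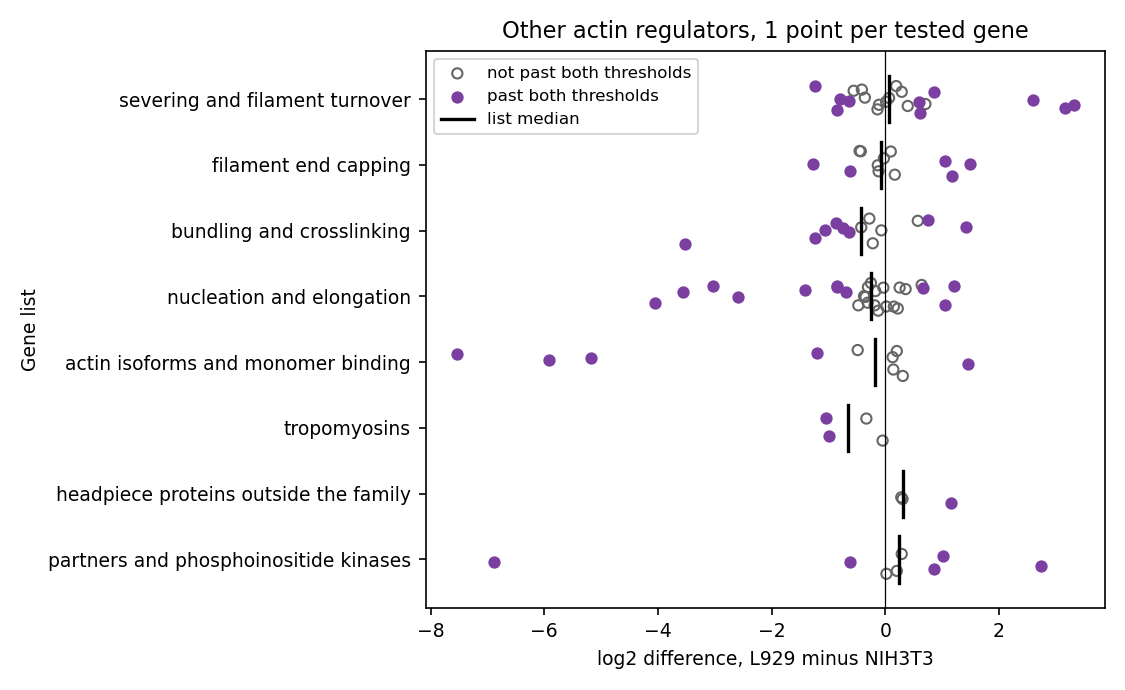
Log2 difference, L929 minus NIH3T3, of the tested genes of 8 lists of actin regulators outside the family, 1 point per gene with the list median as a black bar; filled points pass both thresholds. Points lie on both sides of 0 in 6 of the lists, and the lowest are Tmsb4x, Myh10, Acta2 and Pfn2.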

How the data were processed

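The deposited intensities are MAS5 signals of an Affymetrix mouse array, made by the authors with MAS5 per the submitters' processing notes, with 2 arrays per line; no version or target scaling was stated in the labels. Of 45037 non-control probe sets, 34945 carry 1 gene symbol, 932 several and 9160 none; gene order came from a GRCm38.p6 gene table. Arrays were scaled to a common 2% trimmed mean. limma 3.58.1 in R 4.3.3 was fitted with a mean-variance trend on log2(signal + 8.01) over the 27438 probe sets above 17.3 on both arrays of a line, with Benjamini-Hochberg adjustment and the submitters' thresholds (0.05 and 1.5-fold). Genes outside the family were tested in a second fit over 12676 genes, with the brightest tested probe set of each. The procedures were tested on simulated data. Members and lists were chosen with earlier results of these data known. Named genes were all members, up to 3 called genes per direction and list, the neighbours of Avil and the 5 genes nearest to it. Alternatives changed the scaling, offset, filter, trend, probe set, replicate block or replicates. With the gene's median probe set, the difference is the median over the gene's tested probe sets. The p-value there is that of the probe set nearest to this median. No depth exists for arrays, and their number limits the precision.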

Additional observations from a re-analysis of the deposited data

How the results depend on the processing

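Avil, whose excess chose the family, had fitted log2 differences of 7.45 to 9.18 over 11 alternatives, the highest with an offset of 1; this range supports nothing further, since NIH3T3 lies below the filter level. The number of family probe sets called higher was 1, and 1 to 2 when each replicate was left out. The number called lower was 2, against 4 without scaling, where the 4 are the bright Gsn probe sets and the Svil 1460694_s_at call is lost (-1.11), 1 with no filter, 1 with no mean-variance trend, and 1 to 4 when each replicate was left out. Among actin regulators, 19 were higher, against 7 without scaling and 17 to 20 with a replicate left out, and 28 were lower, with 23 to 30 over those fits. Signs turned without scaling for Capg 1450355_a_at (-0.11), Flii 1416044_at (-0.27), Flii 1448189_a_at (-0.21) and Atp23 (-0.040), and without NIH3T3 replicate 2 for Capg 1447803_x_at (-0.49, in a range of -0.49 to 1.94 with each replicate left out) and Flii 1448189_a_at (-0.050, in a range of -0.050 to 0.20). Without scaling, the median of all tested probe sets moved to -0.28, with 1484 higher and 3722 lower calls, against 4091 and 4582 with it. Same-numbered deviations of the lines correlated at 0.01. That value cannot tell whether same-numbered arrays were handled together, and the labels do not say. With the replicate block, 2 family probe sets were higher and 2 lower. The cause of these changes was not tested.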
